A study of Homo sapiens with 21 samples.

Results

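The second part of the early response to hydrogen peroxide was followed in hTERT-HPNE cells by comparing 3 RNA-seq libraries prepared 8 h after treatment with 3 prepared 4 h after treatment, 6 of the 21 libraries of the study. The line is an immortalized, nontransformed pancreatic duct line kept in culture by telomerase, and all libraries came from this 1 line. Both groups received 300 μM H2O2, an oxidant, in fresh medium that contained epidermal growth factor. They were set against untreated cells and, for the same interval, against cells given 400 ng/ml NCS (neocarzinostatin, which breaks both DNA strands), with 3 libraries each at 4 h and 8 h; the H2O2 libraries of 24 h show where a change led. Each library is described in the study as a biological replicate. No untreated cells were harvested 4 h or 8 h after the change of medium. A response to fresh medium and growth factor therefore cannot be told apart from a response to H2O2. This holds for comparisons with untreated cells and for the change from 4 h to 8 h. The NCS-treated cells also received fresh medium, and only the comparison with their change over the same interval bears on this. Of 23368 genes listed, the 19694 with values that vary were all tested. The question put to them was which early changes had decayed by 8 h and which changes had only begun.

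Hydrogen peroxide oxidizes thiols of proteins and damages DNA. Cells answer in layers. Stress and growth factor kinases (ERK, JNK and p38) switch on immediate-early genes such as FOS, JUNB, EGR and NR4A family members, whose transcripts and proteins are short-lived and which are shut off again by phosphatases and other feedback inhibitors that they help to induce. The transcription factor NRF2, freed when its inhibitor KEAP1 is oxidized, raises enzymes that make glutathione, thioredoxin reductase and NADPH. The integrated stress response, in which phosphorylation of the initiation factor eIF2α favours translation of ATF4, raises amino acid synthesis, amino acid transport and tRNA charging genes. The tumour suppressor p53 raises genes of cell cycle arrest, DNA repair, its own feedback and apoptosis, and its target p21 (CDKN1A) leads to repression of mitotic genes.

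Values are regularized log2 (rLog) values that the authors computed from read counts with DESeq2; differences are given in log2 units of these values, and the transformation shrinks them, most strongly for genes with few reads. The values carry no counts, and library depth is therefore unknown. The nestin-positive, mesenchymal-like character of the line was visible in high values of FN1 (20.04), VIM (17.0), CDH2 (12.5) and NES (12.03), means of all libraries. Among duct markers, KRT18 had a mean of 11.6, KRT8 of 7.93, KRT7 of 6.93 and SOX9 of 6.07, whereas KRT19 (0.60), CFTR (-1.34) and EPCAM (-1.76) lay near the bottom of the scale, as did the acinar and endocrine markers that varied (-2.31 to -1.63) and the leukocyte marker PTPRC (0.93). Of the endothelial and macrophage markers, PECAM1 and VWF were low (2.11 and 3.16) and CD68, which is not confined to macrophages, was at 10.1. One library stood apart before any comparison. Replicate 2 of H2O2 at 8 h lay at a distance of 23.9 from the untreated mean, over all genes, against 33.5 and 33.7 for replicates 1 and 3, and it was also nearer to each library of H2O2 at 4 h (27.4 to 27.9 against 31.1 to 32.5). Some counts and calls are also given without it, but most list and class counts are given with all libraries only. Without it, 25 NRF2 targets rose in place of 22, and 10 ER chaperone genes in place of 7.

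From 4 h to 8 h, few genes moved far and many moved a little. With a log2 difference over 1 and a Benjamini-Hochberg adjusted p from limma under 0.05, 32 genes fell (0.162% of the genes tested) and 9 rose (0.0457%). At the adjusted p alone, 5461 genes fell (27.7%) and 3548 rose (18.0%), and the median difference over all genes was -0.01. The excess of falls depended on the genes and scaling used: among genes with a mean of 5 or more 3417 fell and 3486 rose, and with quantile normalization 4451 fell and 4167 rose. The 4 h and 8 h libraries did not overlap for any of the 41 genes past both limits, which the choice of large differences favours. They did not overlap for 46.3% of all genes tested. Among the 32 falls, 29 had been over 1 log2 unit above untreated cells at 4 h, and 1, PLK1, was over 1 unit below them at 8 h. Among the 9 rises, 5 were over 1 log2 unit above untreated cells at 8 h. The libraries that chose these falls and rises also enter the differences from untreated cells, which favours such counts. Without replicate 2 of H2O2 at 8 h, 34 genes fell and 16 rose past both limits, and these included 28 of the 32 falls and all 9 rises.

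The largest fall was that of FOSB, a FOS family partner of JUN proteins in the AP-1 transcription factor. Its values were 12.16, 11.64 and 11.62 at 4 h and 8.78, 8.92 and 8.79 at 8 h, against a mean of 6.93 in untreated cells. The groups lay far apart, and replicate 1 was the highest at 4 h. FOSB fell by 2.98 log2 units (SE 0.11, adjusted p = 1.21e-12), which is 7.89-fold on the linear scale of the transformed values. At 8 h, 38.9% of its early difference from untreated cells was left, and at 24 h its mean was 7.05.

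Other AP-1 and immediate-early genes fell with it. JUNB, a JUN family member, had values of 10.46, 10.25 and 10.22 at 4 h and 9.16, 9.08 and 9.03 at 8 h and fell by 1.22 (SE 0.08, adjusted p = 1.32e-09). The nuclear receptor NR4A1 had 9.92, 9.82 and 9.81 at 4 h and 8.74, 8.58 and 8.79 at 8 h and fell by 1.14 (SE 0.06, adjusted p = 1.74e-10). For both, the libraries of each group kept close together and the groups did not overlap. ATF3, a stress-induced repressor of the ATF family, had 11.68, 11.66 and 11.65 at 4 h and 10.56, 10.39 and 10.64 at 8 h. It fell by 1.13 (SE 0.05, adjusted p = 1.74e-11) and still stood 2.32 above untreated cells. Over the list of AP-1, EGR and other immediate-early transcription factors, 22 of 26 genes fell and 1 rose at the adjusted p alone, with a median difference of -0.38. Of all genes, 27.7% fell and 18.0% rose. NR4A3 also fell past both limits, by 1.04 log2 units, while FOS, the founding member of the AP-1 family, fell by 0.92 and EGR1 by 0.77. EGR1 was already 0.43 below untreated cells at 4 h. The exceptions were KLF2, a Krüppel-like factor, which rose by 0.46, and FOSL1, FOSL2 and JUN, which did not pass the test. JUN, the JNK substrate after which the kinase is named, had 11.39, 11.24 and 11.26 at 4 h and 11.46, 11.27 and 11.33 at 8 h (difference 0.06, SE 0.06, adjusted p = 0.424), and these overlapped.

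Feedback inhibitors of the kinases split. DUSP8, a phosphatase that acts on JNK and p38, had 7.16, 7.19 and 7.17 at 4 h and 6.14, 6.27 and 6.06 at 8 h and fell by 1.02 (SE 0.07, adjusted p = 2.59e-09). DUSP16, which prefers JNK, fell by 0.88, and ERRFI1, an inhibitor of the EGF receptor, fell by 0.90. All 3 were within 0.26 of untreated cells at 8 h. DUSP6, a phosphatase specific for ERK, went the other way. It had 8.28, 8.23 and 8.37 at 4 h, below the untreated mean of 9.14, and 9.19, 9.10 and 9.08 at 8 h, a rise of 0.83 (SE 0.04, adjusted p = 1.18e-10) that brought it back to within 0.02 of untreated cells. DUSP5, a nuclear ERK phosphatase, rose by 0.55. Over the list of MAPK phosphatases and ERK feedback inhibitors, 10 of 18 fell and 5 rose (median -0.20), against 27.7% and 18.0% of all genes. Among 8 ligands of the EGF receptor family, HBEGF fell by 0.92 and AREG and NRG1 rose by 0.27 and 0.38. NRG1 binds other members of the family than the EGF receptor itself. The rise of AREG was lost without replicate 2 of 4 h or replicate 1 of 8 h (0.18 each).

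**Figure D1:**
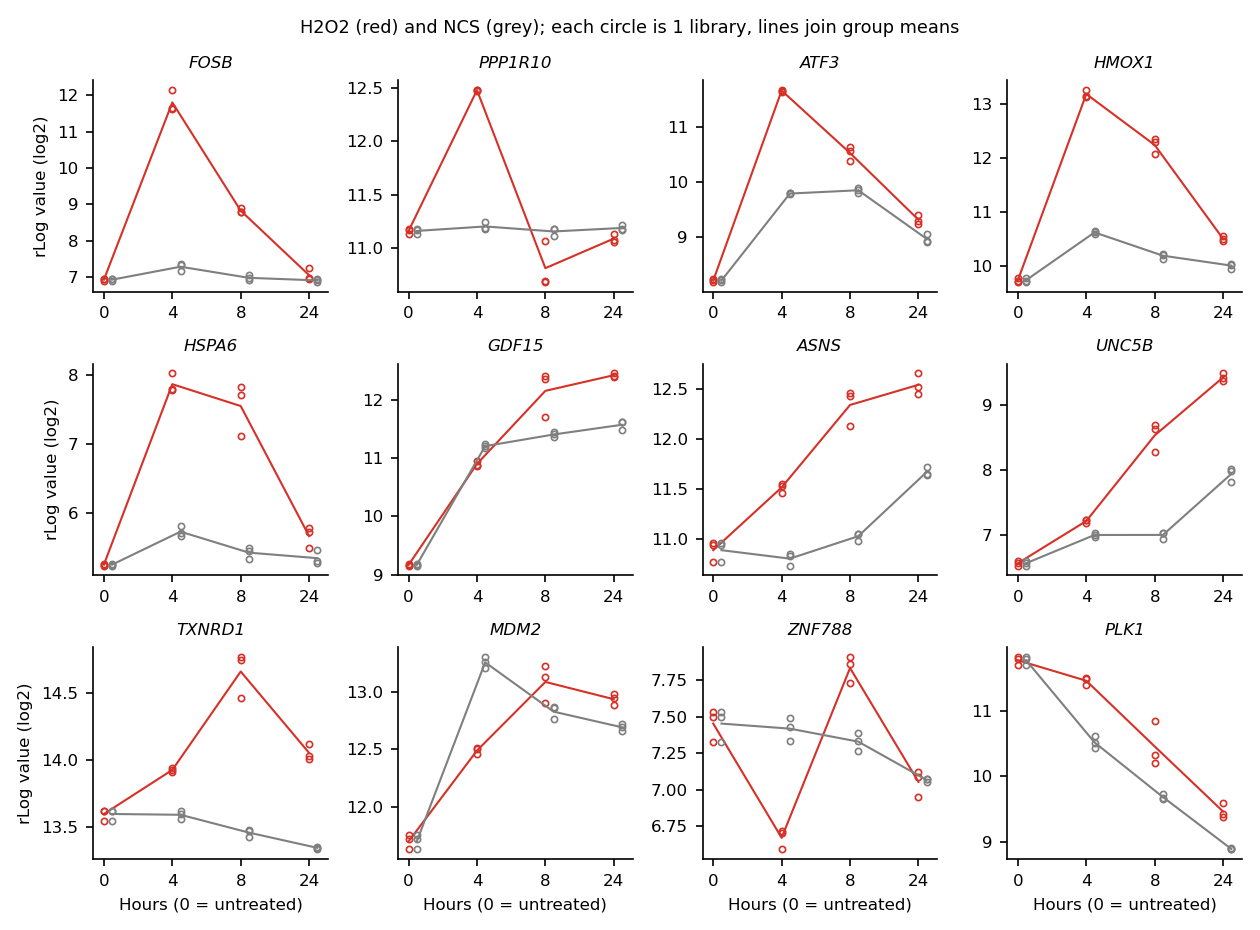
rLog values (log2, vertical axes that differ between panels and do not start at 0) of 12 genes in untreated cells (0 h) and 4, 8 and 24 h after H2O2 (red) or NCS (grey), with evenly spaced times, 1 circle per library and lines through group means. FOSB, PPP1R10, ATF3 and HMOX1 peaked at 4 h of H2O2, HSPA6 overlapped between 4 h and 8 h, and replicate 2 was the lowest 8 h value for GDF15 (11.71), UNC5B (8.28) and TXNRD1 (14.47) and the highest for PLK1 (10.84).

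Genes outside the immediate-early list were among the largest falls too. PPP1R10, which encodes PNUTS, a nuclear subunit of protein phosphatase 1 that acts in transcription termination, had 12.48, 12.49 and 12.47 at 4 h and 10.69, 11.06 and 10.68 at 8 h. It fell by 1.67 (SE 0.06, adjusted p = 2.37e-12), to 0.35 below untreated cells. PCF11, a cleavage and polyadenylation factor that couples 3′ end formation to termination, had 10.92, 10.96 and 10.93 at 4 h and 9.54, 9.97 and 9.62 at 8 h and fell by 1.23 (SE 0.07, adjusted p = 1.82e-10), to 0.42 below. Both went from above untreated cells to below them within the interval. BHLHE40, a clock-linked repressor, fell by 1.42, and the cytokine LIF, with 10.81, 10.75 and 10.85 at 4 h and 9.60, 9.60 and 9.61 at 8 h, fell by 1.20 (SE 0.04, adjusted p = 1.5e-12). CSRNP1, a nuclear protein of early responses, fell by 1.09.

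Of the 32 falls, 19 had a mean rLog value under 7 over all libraries, which is near the background, since 49.1% of all genes tested did; none of the 9 rises did. CELSR2, a seven-pass cadherin, had 8.81, 8.86 and 8.79 at 4 h and 6.90, 6.93 and 7.05 at 8 h and fell by 1.86 (SE 0.06, adjusted p = 1.99e-13) towards its untreated mean of 6.28. ITGA7, an integrin of muscle, fell by 1.49, MMP25, a membrane-anchored metalloproteinase of leukocytes, by 1.33, AOC3, a vascular amine oxidase, by 1.29, and ITGAM, an integrin of myeloid cells, by 1.19. These genes belong to unrelated cell types. Of the 4 leukocyte and endothelial markers that varied, 1 fell and 3 did not pass the test (differences -0.25 to -0.01). PTPRC was among those that did not pass, but its mean of 0.93 lies near the bottom of the scale, where rLog shrinks differences most. What several of them shared was a neighbour. In GENCODE v29, 9 of the 18 such genes that could be placed had, within 20 kb upstream on the same strand, the end of a gene with a mean value of at least 8 (50%), against 14.3% of all placed genes with a mean under 7. CELSR2 lies downstream of SARS (the seryl-tRNA synthetase gene), ITGA7 of CD63, MMP25 of THOC6, AOC3 and AOC2 of PSME3, ACCN4 of GMPPA, SEMA4A of LMNA, COL11A2 of RXRB and KIAA1683 of JUND. The neighbours themselves took different courses: SARS rose by 0.35, THOC6 and JUND fell by 0.60 and 0.94, and the other 5 differed by -0.07 to 0.04. Among the 13 falls with a mean of at least 7, 2 had such a neighbour (15.4%), and the share over all genes with such a mean was not taken. Of genes with a mean under 7 that rose early and decayed, a class set out below that overlaps the falls, 23 of 54 placed had one (42.6%). Whether reads that ran past the end of the neighbour took part in these values was not tested.

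The 9 rises past both limits were UNC5B, GDF15, MKNK2, SLC6A9, ZNF788, ZNF697, NAGS, ARRDC3 and FAM129A. UNC5B, a netrin receptor of the dependence receptor type and a p53 target, had 7.18, 7.24 and 7.23 at 4 h and 8.64, 8.28 and 8.69 at 8 h, a rise of 1.32 (SE 0.08, adjusted p = 3.34e-10). GDF15, a secreted stress cytokine under p53 and ATF4, had 10.87, 10.88 and 10.95 at 4 h and 12.40, 11.71 and 12.35 at 8 h, a rise of 1.25 (SE 0.11, adjusted p = 4.77e-08). MKNK2, a kinase of the initiation factor eIF4E that acts downstream of ERK and p38, had 10.85, 10.82 and 10.80 at 4 h and 12.22, 11.71 and 12.17 at 8 h, a rise of 1.21 (SE 0.08, adjusted p = 2.1e-09). In all 3 the groups lay apart, and the lowest library at 8 h was replicate 2; without it the differences were 1.45, 1.47 and 1.37. MKNK2 was 0.12 above its untreated level at 4 h and 1.25 above it at 24 h. SLC6A9, a glycine transporter, rose by 1.19 and FAM129A, a regulator of translation under stress, by 1.01. NAGS, which makes the activator of the urea cycle, and ARRDC3, an arrestin that follows glucose, rose by 1.07 and 1.03.

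Genes that had gone up early were followed one by one. At 4 h, 129 genes were over 1 log2 unit above untreated cells at the adjusted p under 0.05 (0.655% of the genes tested) and 8 were over 1 unit below (0.0406%). Since the same 4 h libraries chose these genes and enter the difference from 8 h, a fall is favoured by the choice, and the classes are a description. Of the 129, 76 had decayed (fallen past the adjusted p with less than 50% of the early difference left), 37 had partly decayed (fallen, with at least 50% left), 7 had held (no change past the adjusted p) and 9 had grown. The median share left at 8 h was 42.7%. It was 37.4% for the 76 of the 129 genes with a mean value under 7 and 67.9% for the 53 others, of which 20 had decayed, 18 had partly decayed, 6 had held and all 9 of the last class had grown.

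The 20 decayed genes at higher expression included signalling and early transcription genes: FOSB, CORO2A, NR4A1, BHLHE40, LIF, HBEGF, JUNB, GEM, CSRNP1, PPP1R10, KDM6B, ERRFI1, the small MAF genes MAFF, MAFG and MAFK, and the cytokine IL11. At 24 h the median of the 76 was 0.04 above untreated cells. Partly decayed genes included HMOX1, heme oxygenase, with 13.16, 13.13 and 13.27 at 4 h and 12.29, 12.08 and 12.36 at 8 h. It fell by 0.94 (SE 0.05, adjusted p = 2.89e-10), and 72.6% of its early difference was left. The zinc exporter SLC30A1 kept 69.6% of its early difference and the muscle gene XIRP1 60.9%. Of the apoptosis and growth arrest genes, BBC3, which encodes PUMA, had 9.00, 8.94 and 8.96 at 4 h and 8.64, 8.36 and 8.68 at 8 h (74.0% left), and GADD45A kept 81.3%. The limit of 50% cut through a continuum, with MAFF (49.4%) and FAM131B (49.7%) just inside the decayed class and PLAC2 (50.6%) and SIK1 (51.1%) just outside it.

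The 7 genes that held were HSPA6, VEGFA, CEBPB, PMAIP1, TSC22D3, PLK2 and JHDM1D. PMAIP1, which encodes the BH3-only protein NOXA, had 11.24, 11.15 and 11.34 at 4 h and 11.34, 11.00 and 11.09 at 8 h (difference -0.10, SE 0.07, adjusted p = 0.237), against an untreated mean of 10.1. Its libraries overlapped (two-sided exact permutation test, p = 0.4; 3 libraries against 3 cannot give less than 0.1), and by 24 h its mean had come down to 10.3. HSPA6, the strictly inducible HSP70, had 8.02, 7.79 and 7.78 at 4 h and 7.83, 7.11 and 7.71 at 8 h (difference -0.32, SE 0.13, adjusted p = 0.0559), against 5.25 in untreated cells. HSPA6 passed as a fall without replicate 1 or 3 of 8 h (-0.46 and -0.40), with the replicate block and among genes with a mean of 5 or more (-0.32 each), and with aligned medians (-0.30), and PMAIP1 passed without replicate 1 (-0.20). The reads of HSPA6 are hard to tell from those of a near-identical copy. VEGFA, the angiogenic growth factor, had 10.82, 10.79 and 10.78 at 4 h and 10.81, 10.56 and 10.81 at 8 h. That these genes did not pass the test does not show equal levels. Without replicate 2 at 8 h, TSC22D3, which encodes a glucocorticoid-induced leucine zipper protein, rose by 0.13 (adjusted p = 0.0023).

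The 9 genes that grew were SESN2, CHAC1, GDF15, BTG2, ULBP1, ADM2, DDIT4, CDKN1A and TRIB3. Among them, CHAC1, ADM2 and TRIB3 are known targets of ATF4, BTG2 and CDKN1A of p53, and SESN2, GDF15 and DDIT4 of both, and ULBP1 is a stress ligand for natural killer cells. CDKN1A, which encodes p21, had 15.31, 15.30 and 15.36 at 4 h and 15.87, 15.44 and 15.91 at 8 h, a rise of 0.42 (SE 0.07, adjusted p = 0.000148). TRIB3, a pseudokinase that feeds back on ATF4, had 10.50, 10.52 and 10.57 at 4 h and 11.53, 11.04 and 11.58 at 8 h, a rise of 0.85 (SE 0.09, adjusted p = 4.26e-07). The groups did not overlap for either. For SESN2 and BTG2, the libraries overlapped and the rises were small, at 0.22 and 0.19 (adjusted p = 0.0102 and 0.0313). The call of SESN2 was lost without replicate 1 or 3 of 8 h (0.17 and 0.15), and that of BTG2 without replicates 1 or 2 of 4 h (0.14 and 0.20) or 1 or 3 of 8 h (0.12 and 0.16). BTG2 also lost its call with quantile normalization, and SESN2, BTG2, CHAC1 and ULBP1 lost theirs in a fit of the compared groups alone. Of the 8 early repressed genes, TXNIP, an inhibitor of thioredoxin, had 9.15, 9.16 and 9.10 at 4 h and 9.85, 10.09 and 9.72 at 8 h, a rise of 0.75 (SE 0.06, adjusted p = 1.08e-08) towards its untreated mean of 10.3. KIF18B and CCNF had partly come back (0.22 and 0.34), MEOX2, IKZF2 and HJURP did not pass the test, and ASPM, a spindle gene, fell further by 0.26, a call that was lost without replicates 1 or 2 of 4 h (-0.26 and -0.22) or 1 or 3 of 8 h (-0.14 and -0.21). These small changes depended on the settings. KIF18B lost its call without replicates 1 or 3 of 4 h (0.24 and 0.17), without replicates 2 or 3 of 8 h (0.14 and 0.23), with quantile normalization, without the mean-variance trend and in a fit of the compared groups alone, in which CCNF and ASPM lost theirs as well. IKZF2 passed as a rise without replicate 3 of 8 h (0.27), with aligned medians and among genes with a mean of 5 or more, and MEOX2 passed without replicate 3 of 8 h (0.31).

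**Figure D2:**
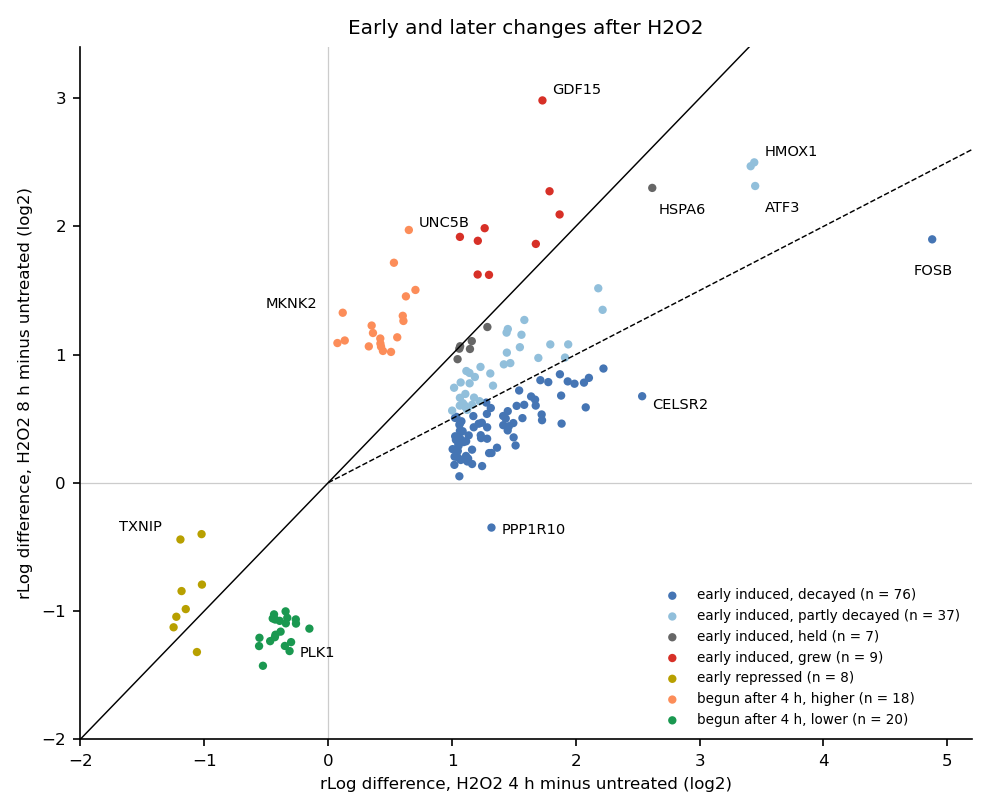
Each point is 1 gene, with its mean rLog difference from untreated cells at 4 h of H2O2 on the horizontal axis and at 8 h on the vertical axis (log2), coloured by class. Genes below the dashed line, such as FOSB (4.88 and 1.90), kept less than 50% of their early difference, and points near the solid line of equality held it. The genes labelled as begun after 4 h, with less than 50% of their 8 h difference at 4 h, stand at the left, above or below 0.

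A second set of genes gained most of its 8 h difference from untreated cells after 4 h. At 8 h, 63 genes were over 1 log2 unit above untreated cells (0.320%) and 39 over 1 unit below (0.198%). Of these, 18 and 20 had moved in the same direction past the adjusted p between 4 h and 8 h and had shown less than 50% of the 8 h difference at 4 h. At 4 h the medians of the 18 and the 20 already differed from untreated cells, by 0.44 and -0.39. Replicate 2 of H2O2 at 8 h decided the size of both groups, since without it they held 34 and 36 genes, and without replicate 1 the second group held 12. Per library, the median of the 18 genes over untreated cells was 1.25, 0.93 and 1.31 in replicates 1 to 3 at 8 h, and that of the 20 genes was -1.32, -0.85 and -1.25. The same libraries gave 0.44, 0.35 and 0.48 for the 76 decayed genes, so that replicate 2 was the nearest to untreated cells in each of these classes.

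The 18 later rises were led by UNC5B (1.97 above untreated cells at 8 h), SLC6A9 (1.72), PSAT1 (1.50), ASNS (1.45) and MKNK2 (1.33). They included 4 genes of the integrated stress response list. Among the enzymes, PSAT1 makes phosphoserine, ASNS asparagine, MTHFD2 mitochondrial one-carbon units and GPT2 alanine, and CARS charges cysteine tRNA. ASNS had 11.46, 11.56 and 11.53 at 4 h and 12.43, 12.13 and 12.47 at 8 h, a rise of 0.83 (SE 0.07, adjusted p = 3.67e-08). PSAT1 had 11.84, 11.83 and 11.90 at 4 h and 12.81, 12.44 and 12.73 at 8 h, a rise of 0.80 (SE 0.07, adjusted p = 1.98e-08). For both, every 8 h library was above every 4 h library. Others were the p53 targets FDXR and PHLDA3, the cyclin gene CCND2, and 2 NRF2 targets, TXNRD1 and OSGIN1. Between 8 h and 24 h, 4 of the 18 rose further past the adjusted p, 7 came down and 7 did not pass. The share of all genes that changed between 8 h and 24 h was not taken, so such counts only describe these genes.

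Among the 20 later falls, 13 belonged to the list of mitotic genes. PLK1, the polo-like kinase of mitotic entry, had 11.48, 11.49 and 11.40 at 4 h and 10.20, 10.84 and 10.33 at 8 h and fell by 1.00 (SE 0.11, adjusted p = 3.98e-07). KIF20A, a kinesin of cytokinesis, had 11.10, 11.06 and 11.10 at 4 h and 9.97, 10.45 and 10.00 at 8 h and fell by 0.94 (SE 0.09, adjusted p = 8.89e-08). In both, replicate 2 was the highest at 8 h and still lay below all libraries of 4 h. B3GALT2, a galactosyltransferase, was the lowest of the 20 against untreated cells (-1.43), followed by PLK1 (-1.31), BUB1B (-1.27), DLGAP5 (-1.27) and KIF20A (-1.24). By 24 h, 17 of the 20 had fallen further, 2 had come back and 1 did not pass the test, again without a share over all genes. Of the 20, 18 were also over 1 log2 unit below untreated cells in NCS at 8 h, against 1 of the 18 later rises, FDXR, above them (0.274% and 0.0660% of all genes tested); the 2 treatments share the untreated libraries in this comparison.

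**Figure D3:**
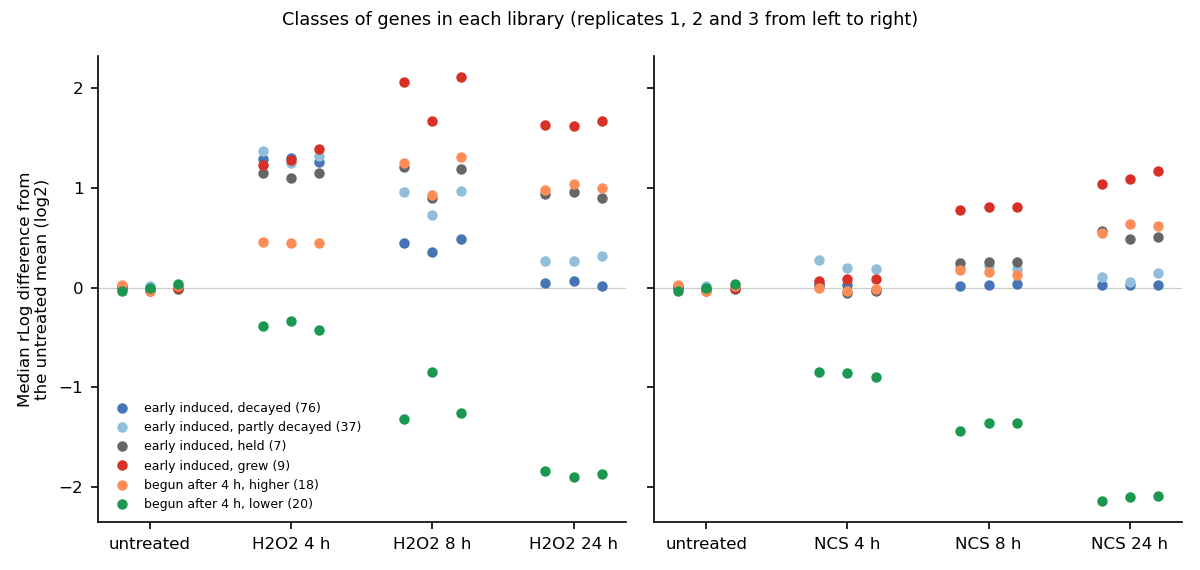
Median rLog difference from the untreated mean (log2, vertical axis) of the genes of 6 classes in every library of untreated, H2O2-treated (left) and NCS-treated cells (right), 1 point per library with replicates 1, 2 and 3 from left to right. The 3 libraries agree closely in each group except H2O2 at 8 h, where replicate 2 lies nearest to 0 in all classes, at 0.93 against 1.25 and 1.31 for the 18 later rises.

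Of 36 integrated stress response targets, 33 were already above untreated cells at 4 h past the adjusted p, as were 26.2% of all genes tested (19.7% were below) and 69 of the 71 ribosomal protein genes. Between 4 h and 8 h, 30 rose further and 3 fell (median 0.35, against -0.01 for all genes, of which 18.0% rose and 27.7% fell). Besides ASNS, PSAT1 and TRIB3, VLDLR, a lipoprotein receptor, rose by 0.79 and DDIT4, an inhibitor of mTORC1, by 0.68. The transfer RNA synthetase genes AARS, GARS, SARS, WARS, NARS and EPRS rose by 0.22 to 0.38. The 3 that fell were DDIT3, which encodes the proapoptotic factor CHOP (9.93, 10.00 and 9.95 at 4 h, 9.79, 9.53 and 9.82 at 8 h, a fall of 0.25, adjusted p = 0.00521), PPP1R15A, the phosphatase subunit that reverses eIF2α phosphorylation (0.24), and CEBPG (0.19). Chaperones of the endoplasmic reticulum, which mark the ATF6 and IRE1 branches of the unfolded protein response, moved less, with 7 of 17 higher and 2 lower (median 0.07). HERPUD1 fell by 0.37.

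Of 33 NRF2 targets, 19 were above untreated cells at 4 h past the adjusted p, as were 26.2% of all genes. Between 4 h and 8 h, 22 rose and 2 fell (median 0.17), against 18.0% and 27.7% of all genes. The 2 that fell were HMOX1 and ABCC2, a conjugate exporter at low expression, by 0.94 and 0.91. TXNRD1, thioredoxin reductase, had 13.91, 13.93 and 13.95 at 4 h and 14.77, 14.47 and 14.75 at 8 h, a rise of 0.74 (SE 0.05, adjusted p = 4.73e-09). TRIM16 had 9.37, 9.37 and 9.42 at 4 h and 10.45, 10.12 and 10.44 at 8 h, a rise of 0.95 (SE 0.06, adjusted p = 1.21e-09), and its copy TRIM16L, with which it may share reads, rose by 0.60. The groups did not overlap for either. The glutathione synthesis genes GCLC and GCLM rose by 0.55 and 0.33, SRXN1 (sulfiredoxin) by 0.45 and NQO1 by 0.41. By 24 h, 16 of the 33 had come down from 8 h and 10 had risen, counts for which no share over all genes was taken. Heat shock chaperones fell slightly, with 13 of 25 lower and 1, DNAJB4, higher (median -0.11). Of 11 metallothionein and zinc export genes, only SLC30A1 passed the test, and the metallothioneins, which are near-identical to each other, differed by -0.15 to 0.12.

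Among 48 p53 targets, 31 rose and 5 fell (median 0.23), against 18.0% and 27.7% of all genes. ZMAT3, an RNA-binding splicing regulator, had 11.15, 11.06 and 11.18 at 4 h, below the untreated mean of 11.4, and 12.20, 11.97 and 12.11 at 8 h, a rise of 0.96 (SE 0.06, adjusted p = 3.05e-10). MDM2, the ubiquitin ligase that degrades p53, had 12.50, 12.46 and 12.51 at 4 h and 13.23, 12.90 and 13.12 at 8 h, a rise of 0.60 (SE 0.06, adjusted p = 1.25e-07). Every 8 h library of these genes was above every 4 h library. FDXR rose by 0.81, PHLDA3, an AKT inhibitor, by 0.70, the death receptor genes FAS and TNFRSF10B by 0.49 and 0.47, RRM2B by 0.42, PIDD by 0.33 and XPC by 0.29. TP53I3 did not pass the test (0.06, SE 0.04, adjusted p = 0.21). The 5 falls were LIF, ATF3, BBC3, GADD45A and AEN. Without replicate 2 of H2O2 at 8 h, AEN did not pass (-0.079, adjusted p = 0.0505). In the BCL2 family, BBC3 fell by 0.41, BCL2 itself by 0.27, and BAK1 and BCL2L1 rose by 0.33 and 0.30; in all, 2 of 19 rose and 8 fell.

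Cell cycle genes fell. Of 47 mitotic genes, 44 fell and none rose (median -0.48), against 27.7% and 18.0% of all genes. Without replicate 2 at 8 h the median was -0.63, with 46 lower. At 4 h, 41 of the 47 were already below untreated cells past the adjusted p (median -0.39), against 19.7% of all genes. HMMR, which acts at spindle poles, fell by 0.99 and DLGAP5, a spindle protein, by 0.92. Of 42 genes of replication licensing, forks and G1/S, 30 fell and 2 rose (median -0.24). At 4 h, 24 of the 42 were already below untreated cells past the adjusted p (median -0.15). RFC4 and MCM3 fell by 0.48 each, and CDC6 and EXO1 rose by 0.12 and 0.35. Bulk RNA does not tell fewer cells in a phase from less RNA per cell. Sterol and fatty acid genes fell as well, 19 of 27 lower and 1 higher (median -0.17), with IDI1 down by 0.63 and INSIG1 by 0.61, whereas SREBF1 rose by 0.25.

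mRNA decay and antiproliferative factors of the BTG, TOB and ZFP36 families rose, 7 of 8 higher and BTG3 lower (median 0.43). TOB1 had 10.04, 9.92 and 10.05 at 4 h and 10.71, 10.44 and 10.54 at 8 h, a rise of 0.56 (SE 0.07, adjusted p = 2.81e-06). ZFP36, which binds AU-rich elements of short-lived mRNAs, rose by 0.46 from a 4 h level that was 0.34 below untreated cells. Over all genes, 18.0% rose and 27.7% fell. Among NF-kB feedback genes, cytokines and chemokines, 5 of 26 rose and 6 fell, close to these shares. IL11 and IL8 were down by 0.72 and 0.55 and TNFAIP2 was up by 0.57. Of 24 hypoxia-type and glycolysis genes, 6 rose and 11 fell; PFKFB3 fell by 0.58 and HK2 by 0.53. Of 21 YAP and TGF-beta genes, 3 rose and 14 fell, with SKIL down by 0.59 and AJUBA up by 0.65. In the list of ID proteins and BMP feedback, 2 of 8 rose and 4 fell. Of 13 long noncoding RNAs, 6 rose and 3 fell, with GAS5 up by 0.42 and MALAT1 down by 0.53. Of 20 histone genes, 2 fell and none rose, and of 71 cytosolic ribosomal protein genes, 2 rose and 3 fell, with all differences between -0.12 and 0.14.

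**Figure D4:**
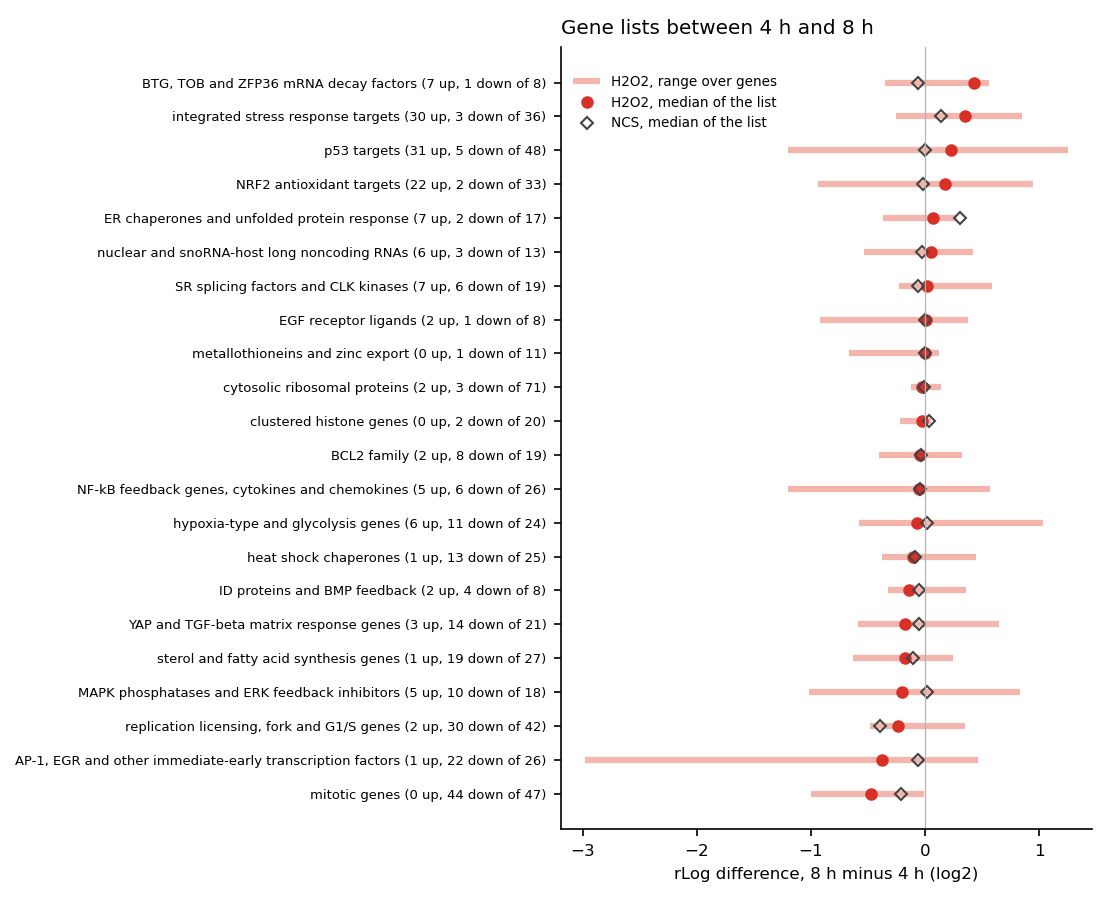
Differences in rLog value between 8 h and 4 h (log2, horizontal axis) for 22 gene lists, with the median of each list in H2O2 (red circle), the range over its genes in H2O2 (bar) and its median in NCS (open diamond); the labels give how many genes passed the adjusted p in H2O2. Medians ran from -0.48 for mitotic genes to 0.43 for BTG, TOB and ZFP36 factors, and the ER chaperone list had a higher median in NCS (0.30) than in H2O2 (0.07).

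A further pattern, noticed after the values were seen, was a dip at 4 h. Of 194 genes that rose by over 0.58 past the adjusted p, 137 had been below untreated cells at 4 h at the adjusted p and 26 above, against 19.7% and 26.2% of all genes; the 4 h libraries enter both differences, which favours this order. ZNF788, a zinc finger gene, had 6.72, 6.59 and 6.71 at 4 h and 7.86, 7.73 and 7.91 at 8 h, a rise of 1.16 (SE 0.06, adjusted p = 1.21e-10) from 0.78 below untreated cells to 0.38 above. ZNF697 had 8.80, 8.83 and 8.86 at 4 h and 10.04, 9.88 and 9.96 at 8 h, a rise of 1.12 (SE 0.04, adjusted p = 1.21e-12), from 0.46 below to 0.66 above. Over the 565 genes with names in ZNF, ZFP, ZSCAN or ZKSCAN, 293 rose and 65 fell (median 0.15), against 18.0% and 27.7% of all genes. As a family they showed little dip: at 4 h, 169 were below and 115 above untreated cells past the adjusted p (median -0.03), and at 8 h their median was 0.11 above. CLK2, a kinase of splicing factors, and SRSF6, one of its class of substrates, took the same course, 0.49 and 0.29 below untreated cells at 4 h and rising by 0.58 and 0.38. In the whole list of SR proteins and CLK kinases, 7 of 19 rose and 6 fell (median 0.02).

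The same interval in NCS-treated cells held fewer changes. At the adjusted p, 1213 genes rose (6.16%) and 1477 fell (7.50%) between 4 h and 8 h of NCS. The change in H2O2 minus the change in NCS, tested as an interaction, was higher for 2897 genes (14.7%) and lower for 3551 (18.0%). With library medians aligned, the split turned, to 4517 higher and 2773 lower. All 9 of the large rises and 31 of the 32 large falls differed from NCS by this test, PLK1 being the exception (difference -0.17, adjusted p = 0.44). The H2O2 change that chose these genes is part of the interaction, which favours a call. Without replicate 2 of H2O2 at 8 h, PLK1 passed too (-0.36, adjusted p = 0.00205). The largest negative differences were those of FOSB, CELSR2, PPP1R10, PDE4C and ITGA7, and the largest positive ones those of UNC5B, PLCL2, ZNF788, MKNK2 and NHSL1. FOSB changed by -0.31 in NCS and PPP1R10 by -0.05. MDM2 moved in opposite directions, rising by 0.60 in H2O2 and falling by 0.43 in NCS (interaction 1.02, SE 0.08, adjusted p = 4.2e-08). Lists differed too: 40 of the 42 replication genes fell in NCS, none rose, and for 20 the change was higher in H2O2 by the interaction test, while for 16 of 47 mitotic genes the change was lower in H2O2 than in NCS and for none higher. A lower change is not a lower level. The library medians of the 20 later falls, 13 of them mitotic, were -0.89 to -0.85 in NCS at 4 h and -0.42 to -0.34 in H2O2. At 8 h they were -1.44 to -1.36 in NCS and -1.32 to -0.85 in H2O2. These genes were chosen by a small H2O2 difference at 4 h, which favours this order at 4 h. Of 17 ER chaperone genes, 16 rose in NCS, and for 10 the change was lower in H2O2.

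Promoters were read for the genes on which these results turn, as a view of the letters in front of genes that fell, held or rose. RefSeq promoters (GRCh38.p14) were matched by symbol for 13964 of the genes tested, with 19993 listed starts. In the 250 bases before a start, 6 short motifs were searched on both strands: TGACTCA (AP-1), TGACGTCA (the cAMP response element), TGACNNNGC (the core of the antioxidant response element), TGCGCNC (the metal response element), GAANNTTC (a pair of heat shock units) and TGATGNAA (the core of the C/EBP-ATF response element). The sequences below run 5′ to 3′ on the gene's strand up to the start, and capitals mark the letters that match a motif. They are FOSB (chr19:45467746-45467995, plus strand), the largest fall; DUSP8 (chr11:1572272-1572521, minus strand), which fell; HSPA6 (chr1:161524290-161524539, plus strand), which held; and ASNS (chr7:97872409-97872658, minus strand) and TXNRD1 (chr12:104215529-104215778, plus strand), which rose late.
FOSB: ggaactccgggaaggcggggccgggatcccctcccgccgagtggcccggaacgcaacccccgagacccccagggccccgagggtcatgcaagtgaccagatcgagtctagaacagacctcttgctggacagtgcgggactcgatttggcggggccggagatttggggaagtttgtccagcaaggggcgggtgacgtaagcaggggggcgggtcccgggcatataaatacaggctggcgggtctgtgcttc
DUSP8: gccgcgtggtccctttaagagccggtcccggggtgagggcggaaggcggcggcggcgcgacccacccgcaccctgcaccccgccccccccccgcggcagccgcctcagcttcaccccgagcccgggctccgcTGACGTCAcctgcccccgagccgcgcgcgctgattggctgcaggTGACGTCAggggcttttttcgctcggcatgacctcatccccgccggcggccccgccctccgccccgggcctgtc
HSPA6: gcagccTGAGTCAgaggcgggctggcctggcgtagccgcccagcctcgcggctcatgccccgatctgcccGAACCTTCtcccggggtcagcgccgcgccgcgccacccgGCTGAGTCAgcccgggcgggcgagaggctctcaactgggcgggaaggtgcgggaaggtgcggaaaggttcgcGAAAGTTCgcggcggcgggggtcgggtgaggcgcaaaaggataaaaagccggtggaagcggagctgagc
ASNS: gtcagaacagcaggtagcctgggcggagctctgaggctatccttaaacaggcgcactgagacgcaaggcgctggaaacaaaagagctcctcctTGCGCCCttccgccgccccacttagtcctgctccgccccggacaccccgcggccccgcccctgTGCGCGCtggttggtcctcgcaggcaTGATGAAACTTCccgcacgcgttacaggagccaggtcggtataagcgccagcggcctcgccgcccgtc
TXNRD1: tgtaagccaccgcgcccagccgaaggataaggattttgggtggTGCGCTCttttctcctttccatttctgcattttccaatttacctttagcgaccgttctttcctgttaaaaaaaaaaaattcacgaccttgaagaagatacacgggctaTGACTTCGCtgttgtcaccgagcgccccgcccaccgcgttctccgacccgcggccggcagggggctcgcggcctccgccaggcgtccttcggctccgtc
FOSB held none of the 6 motifs in this window, DUSP8 held TGACGTCA in 2 places, and HSPA6 held 2 pairs of heat shock units and 2 AP-1 motifs, 1 of them overlapping TGACNNNGC. ASNS held the C/EBP-ATF core, which overlaps a heat shock pair, and TGCGCNC in 2 places, and TXNRD1 held TGACNNNGC and TGCGCNC once each. Only 1 listed start is shown per gene. Another listed start of ASNS held TGCGCNC in 2 places and no C/EBP-ATF core. These matches are letters only.

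Over the groups, each motif was held by a minority of starts, and some shares, counted on few starts, were above those of all starts. The 22 of 32 falls with a promoter had 35 listed starts. Of these, 1 held TGACTCA (2.86%, against 3.35% of all 19993), 1 TGACGTCA (2.86% against 2.14%) and 3 TGACNNNGC (8.57% against 11.4%). TGCGCNC was held by 9 (25.7% against 21.8%), GAANNTTC by 3 (8.57% against 4.63%) and TGATGNAA by 4 (11.4% against 2.12%). The 4 were starts of AOC2, ATF3, PDE4C and SEMA4A. Among 71 starts of 48 of the 76 decayed genes, 3 held TGATGNAA (4.2%). The 7 of 9 rises with a promoter had 8 starts, of which 1 held TGACTCA, 2 TGCGCNC and 2 GAANNTTC, and none the other 3 motifs. Among 43 starts of 28 integrated stress response targets, 5 held TGATGNAA (11.6%) and 4 TGACTCA (9.30%). TGCGCNC was held by 10 of these starts, TGACNNNGC by 6, GAANNTTC by 2 and TGACGTCA by 1. Among 28 starts of 24 NRF2 targets, 8 held TGACNNNGC (28.6%), 7 TGCGCNC, 2 TGACTCA and 2 GAANNTTC, and none TGACGTCA or TGATGNAA. Starts of 1 gene can overlap and share a motif.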

How the data were processed

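RNA-seq (TruSeq stranded mRNA) was carried out on 21 hTERT-HPNE libraries in 7 groups of 3. Values are log2 values that the authors deposited as the regularized log (rLog) output of DESeq2. Per the submitters' processing notes, reads were aligned with HISAT2 to hg19 and counted with htseq-count; versions, annotation and strand setting are not given in the sources used here. rLog shrinks differences of genes with few reads, and depth is unknown, so precision rests on the spread of 3 libraries per group.

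Genes listed at 0 in every library (3674) were left out. limma 3.58.1 (R 4.3.3) was fitted to all 7 groups with a mean-variance trend, without blocks, and p-values were adjusted by Benjamini-Hochberg over 19694 genes. Calls needed an adjusted p under 0.05, alone or with a log2 difference over 1. Standard errors are those of limma. Distances between libraries are Euclidean over these genes. Tables and figures were made with Python 3.11.15, numpy 2.4.6, pandas 2.3.3 and matplotlib 3.10.9, and the fit was tested on simulated data.

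The members and gene lists were chosen with earlier results of these data known. Named genes were the 15 largest rises and falls past both limits without overlap, up to 4 genes per list with the largest differences past the adjusted p, 5 per class, 5 interaction differences in each direction, and genes that the study names. Other members of a list or class were named after their values were seen. The table holds 27 date-like gene names, which were kept as given. Some genes of the classes are not reported here. Neighbours came from GENCODE v29 (GRCh38), in which 18360 genes were placed, and promoter sequences from RefSeq (GRCh38.p14); no coordinates of hg19 were used. Alternatives were library medians aligned, quantile normalization, only genes with a mean of 5 or more, no mean-variance trend, a fit of the compared groups only, a log2 limit of 0.58, a replicate block and leaving out each library.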

Additional observations from a re-analysis of the deposited data

Results flagged for a closer look

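The change from 4 h to 8 h differed between H2O2 and NCS by the interaction test of limma for 2897 genes that were higher and 3551 that were lower in H2O2. The largest single differences of change, in log2 units, were negative for FOSB (-2.67), CELSR2 (-1.79), PPP1R10 (-1.62), PDE4C (-1.42) and ITGA7 (-1.40). They were positive for UNC5B (1.32), PLCL2 (1.27), ZNF788 (1.25), MKNK2 (1.24) and NHSL1 (1.12). PLCL2 and NHSL1 rose in H2O2 (0.75 and 0.89) and fell in NCS (by 0.52 and 0.23 log2 units). Groups of 3 libraries were not tested for single outlying values.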

How the results depend on the processing

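With a log2 difference over 0.58, 194 genes rose and 245 fell between 4 h and 8 h of H2O2, and with the adjusted p alone 3548 and 5461. Early genes over 0.58 gave 284 decayed, 84 partly decayed, 40 held and 36 grown, with 130 early repressed genes. The later rises and falls then held 99 and 104 genes. A mean value of at least 5 left 3417 falls at the adjusted p (beside 3486 rises), 2284 negative interactions (beside 2921 positive) and 43 decayed genes. A fit of the compared groups alone gave 3628 falls, and aligned medians gave 4517 positive interactions (beside 2773 negative). Leaving out single libraries gave 7 to 16 rises and 30 to 34 falls past both limits, 3249 to 3616 rises and 4784 to 5181 falls at the adjusted p, and 2611 to 3033 positive and 3138 to 3747 negative interactions. It gave 69 to 80 decayed, 34 to 43 partly decayed, 6 to 9 held, 7 to 10 grown and 7 to 10 early repressed genes, and 13 to 34 later rises and 12 to 36 later falls. The highest values of the later rises and falls came without replicate 2 of H2O2 at 8 h. TSC22D3 turned from -0.00 to 0.13 without that library (-0.072 to 0.13 over single libraries left out). Of 1613 values for 135 single genes, 1539 kept direction and side of the threshold, 62 lost the call, 11 gained it and 1 turned. Of 648 list values, 591 stayed within their limits and 57 moved.

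With the replicate block, 9 genes rose and 32 fell past both limits, 3556 and 5508 at the adjusted p, and 2908 and 3568 interactions were called. Classes held 76, 38, 6 and 9 early induced and 8 early repressed genes, with 18 and 20 later changes. Deviations of libraries with the same number correlated at 0.034, 0.024 and -0.014, so the numbers were not treated as pairs. Depth is unknown, and differences of genes with few reads are shrunk by the rLog step.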
